A study of Homo sapiens with 6 samples.

Results

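NRF2 and its antioxidant targets were followed here as 9 genes in HK-2 cells. HK-2 is an immortalized human cell line derived from the kidney's proximal tubule. The rows were taken by gene symbol. All 9 symbols, NFE2L2, KEAP1, HMOX1, NQO1, GCLM, GCLC, TXNRD1, SRXN1 and SLC7A11, were present among 20442 genes, and all 9 were among the 12461 genes that passed the expression filter (a mean FPKM of at least 1). FPKM is fragments per kilobase of transcript, scaled to the total of mapped fragments, so levels can be compared between genes per length. There were 3 libraries labelled HNRNPF overexpression and 3 labelled control. Cells of the first group received a lentivirus carrying HNRNPF, and cells of the second a control lentivirus (given as a control plasmid in the sample labels). The study cultured both for 72 h in medium with 30 mM glucose or 30 mM mannitol, the osmotic control. The study calls its libraries biological replicates. The labels give neither the medium of each library nor a separate culture for each, so p-values measure the spread between libraries, which may be technical.

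NRF2, encoded by NFE2L2, is a transcription factor that switches on genes for antioxidant defence and detoxification. In unstressed cells KEAP1 holds NRF2 and presents it to a CUL3 ubiquitin ligase for destruction. Oxidants and electrophiles modify KEAP1, and NRF2 then accumulates and binds antioxidant response elements together with small MAF proteins. Control is mainly through the stability of the NRF2 protein, which mRNA levels do not show. HMOX1 stands somewhat apart from the other targets, since the heme-sensing repressor BACH1 keeps it off and several other stress pathways also act on it. Proximal tubule cells, which work at a high oxidative load, rely on this system.

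HNRNPF, the gene of the RNA-binding protein delivered by the virus, went against the labels. It had 322.83, 349.84 and 320.8 FPKM in the libraries labelled overexpression, against 555.18, 563.36 and 588.68 FPKM in the libraries labelled control (-0.78 on the log2 scale, SE 0.061, limma adjusted p = 1.07e-04). The study lists the delivered insert under a gene ID other than that of this row (3185). Whether reads of the delivered copy enter this value is not given in the sources used here, so it may reflect the endogenous transcript alone. Directions below follow the labels and would be opposite if these had been exchanged. The 6 libraries each had 12396 to 12462 genes at an FPKM of at least 1. Of 12 proximal tubule markers, 3 had a mean of at least 1 FPKM (SLC5A2, GGT1 and MIOX). LRP2, SLC22A6 and SLC22A8 were listed at 0 in every library. Of 5 epithelial markers, the keratins KRT8, KRT18 and KRT19 were high in each library, and EPCAM was at 40.8 to 48.29 FPKM. CDH1 was nearly absent, at 0.07 FPKM or less. For fibroblast markers the sum, mostly COL1A1, was 7.47 to 7.98 FPKM with the overexpression label and 4.52 to 5.90 FPKM with the control label. For immune markers, nearly all CD68, it was 190 to 213 FPKM with the overexpression label and 163 to 177 FPKM with the control label. The other immune markers PTPRC, CD3E and LYZ reached at most 0.04, 0.1 and 0.52 FPKM in any library. Endothelial markers summed to at most 0.41 FPKM in any library. The part of other cell types in the results was not tested.

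Of the 9 genes, 5 were higher and 1 was lower with the overexpression label at a limma adjusted p under 0.05. Over all genes tested, 24.4% passed, 11.3% higher and 13.1% lower. The 5 higher genes were SRXN1, HMOX1, NQO1, KEAP1 and GCLM, and the lower gene was NFE2L2 itself. GCLC, TXNRD1 and SLC7A11 did not pass. The groups did not overlap in 6 of the 9 genes, against 42.1% of all genes tested. The median log2 fold change was 0.19 over the 9 genes and -0.013 over all genes tested. None of the 9 reached a 2-fold change.

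**Figure D1:**
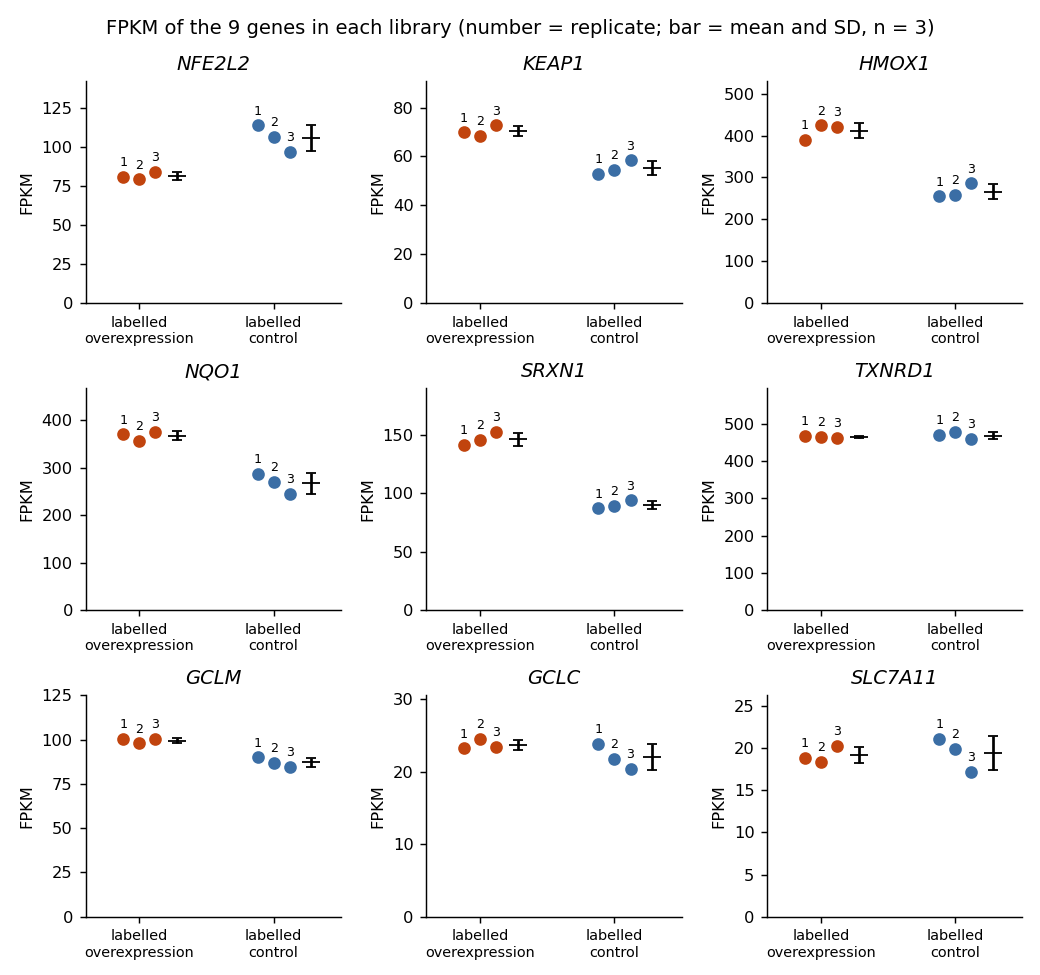
FPKM (y axis, from 0) of each of the 9 genes in the 3 libraries labelled overexpression (left) and the 3 labelled control (right), with the replicate number above each point and the mean and SD (n = 3) beside each group. The groups are apart for NFE2L2, KEAP1, HMOX1, NQO1, SRXN1 and GCLM, and they overlap for TXNRD1, GCLC and SLC7A11.

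The factor and its sensor moved in opposite directions. NFE2L2 (gene ID 4780, GRCh38.p14 chromosome 2, 177230303 to 177264727) had 80.98, 79.15 and 84.22 FPKM in the libraries labelled overexpression, against 113.73, 106.46 and 96.72 FPKM in those labelled control. Every library labelled overexpression lay below every library labelled control. The gene was 1.29-fold lower (log2 difference -0.37, 95% confidence limits -0.53 to -0.21, limma adjusted p = 0.00671). KEAP1 (gene ID 9817, chromosome 19, 10486125 to 10503356) had 69.81, 68.49 and 72.67 FPKM in the libraries labelled overexpression, against 53.01, 54.44 and 58.39 FPKM in those labelled control. It was 1.27-fold higher, again with no overlap (log2 fold change 0.35, 95% confidence limits 0.21 to 0.49, limma adjusted p = 0.00576).

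The ratio of NFE2L2 to KEAP1 transcript was lower in the libraries labelled overexpression. It was 1.16, 1.16 and 1.16 there, against 2.15, 1.96 and 1.66 in the libraries labelled control. In the values as deposited, the ratio was almost identical in the 3 libraries labelled overexpression and spread widely among those labelled control. The difference was -0.72 on the log2 scale (two-sided exact permutation test, p = 0.1, adjusted p = 0.2 over 2 ratios, n = 3 each), and 0.1 is the smallest p that 3 against 3 libraries allow. The difference was -0.48 after a trend on GC content, length and expression was subtracted. In replicates 1 to 3 labelled control, NFE2L2 then deviated from its group mean by 0.032, -0.0026 and -0.030, and KEAP1 by 0.028, 0.0085 and -0.037. With the overexpression label the deviations were -0.018, -0.022 and 0.040 for NFE2L2 and 0.025, -0.068 and 0.043 for KEAP1. The wider spread with the control label was thus not kept. GENCODE places other genes within or across the span of NFE2L2, among them HNRNPA3 and AGPS on the opposite strand. The libraries were stranded, but the strand setting of the counting was not given in the sources used here, so reads that NFE2L2 shares with them cannot be told apart.

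HMOX1 encodes heme oxygenase, which breaks heme down to biliverdin, iron and carbon monoxide. It lies on chromosome 22, 35381096 to 35394207 (gene ID 3162). FPKM values were 390.55, 424.14 and 419.92 in the libraries labelled overexpression, against 254.56, 258.82 and 285.76 in the libraries labelled control. The lowest library labelled overexpression stood well above the highest labelled control. HMOX1 was 1.55-fold higher (log2 fold change 0.63, 95% confidence limits 0.48 to 0.78, limma adjusted p = 4.35e-04). Ordered by upward change, it ranked 284 among the 12461 tested genes.

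SRXN1 encodes sulfiredoxin, which restores over-oxidized peroxiredoxins. This gene (gene ID 140809, chromosome 20, 646615 to 653200) was at 141.26, 145.68 and 152.36 FPKM in the libraries labelled overexpression, against 86.99, 89.36 and 93.92 FPKM in those labelled control. It had the largest change of the 9 genes, 1.62-fold higher (log2 fold change 0.70, 95% confidence limits 0.57 to 0.83, limma adjusted p = 1.70e-04). Its neighbours were higher too: the 55 other tested genes within a 10 Mb window had a median log2 fold change of 0.21. With the shift of neighbours removed, SRXN1 stayed higher at a log2 fold change of 0.50 (limma adjusted p = 4.79e-04), and HMOX1, at 0.68, then had the larger change. An unnamed protein-coding gene overlaps SRXN1 on the same strand in GENCODE, and reads that the pair share cannot be told apart.

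NQO1 encodes a reductase that takes quinones to hydroquinones in a single step. It lies on chromosome 16, 69709401 to 69726560 (gene ID 1728). It had 370.5, 356.77 and 374.92 FPKM in the libraries labelled overexpression, against 287.23, 270.73 and 244 FPKM in those labelled control. NQO1 was 1.38-fold higher with no overlap (log2 fold change 0.46, 95% confidence limits 0.31 to 0.62, limma adjusted p = 0.00257). The SD was 9.46 FPKM in the libraries labelled overexpression and 21.8 FPKM in those labelled control (n = 3 each), which were the more spread.

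The genes of glutathione supply differed little. GCLM and GCLC encode the modifier and catalytic subunits of glutamate-cysteine ligase, the rate-limiting enzyme of glutathione synthesis, and SLC7A11 encodes the cystine transporter that supplies it. GCLM (gene ID 2730, chromosome 1, 93885199 to 93909430) had 100.26, 97.89 and 100.38 FPKM in the libraries labelled overexpression, against 90.04, 87.04 and 84.68 FPKM in those labelled control. It was 1.14-fold higher and only just passed (log2 fold change 0.19, 95% confidence limits 0.064 to 0.32, limma adjusted p = 0.0367). The call was lost on leaving out overexpression replicate 1 (limma adjusted p = 0.0997), overexpression replicate 2 (0.0659), overexpression replicate 3 (0.124), control replicate 1 (0.0522) or control replicate 2 (0.134), with log2 fold changes of 0.18 to 0.21 in those fits. With the neighbours' shift subtracted it was 0.33 and passed (0.00979).

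GCLC (gene ID 2729, chromosome 6, 53497341 to 53545101) was at 23.22, 24.52 and 23.44 FPKM in the libraries labelled overexpression, against 23.89, 21.82 and 20.35 FPKM in those labelled control. The groups overlapped (log2 fold change 0.11, 95% confidence limits -0.066 to 0.29, limma adjusted p = 0.327). It passed with the median shift of its neighbours subtracted (0.22 on the log2 scale, limma adjusted p = 0.0425). SLC7A11 (gene ID 23657, chromosome 4, 138164097 to 138242349) had 18.82, 18.4 and 20.26 FPKM in the libraries labelled overexpression, against 21.08, 19.95 and 17.23 FPKM in those labelled control. The 2 ranges coincide almost entirely (log2 fold change -0.015, 95% confidence limits -0.22 to 0.19, limma adjusted p = 0.916). The ratio of GCLC to GCLM was 0.23, 0.25 and 0.23 with the overexpression label, against 0.27, 0.25 and 0.24 with the control label, and overlapped (exact permutation test, p = 0.2, n = 3 each).

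TXNRD1 encodes cytosolic thioredoxin reductase, a selenoprotein that keeps thioredoxin reduced. It lies on chromosome 12, 104215779 to 104350307 (gene ID 7296). It was the most abundant of the 9 genes and the flattest, with 469.04, 465.05 and 462.88 FPKM in the libraries labelled overexpression, against 470.83, 478.3 and 459.41 FPKM in those labelled control. The log2 fold change was -0.012, with a 95% interval of -0.13 to 0.11 (limma adjusted p = 0.894). This interval leaves out the changes of HMOX1, NQO1 and SRXN1. In GENCODE the protein-coding gene EID3 and the pseudogene RPL18AP3 overlap TXNRD1 on the same strand. Long noncoding RNA genes overlap KEAP1 and GCLC on theirs. Reads shared in these overlaps cannot be told apart either.

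The order of the levels changed between the groups. In the libraries labelled overexpression it ran TXNRD1 (466 ± 3.12), HMOX1 (412 ± 18.3), NQO1 (367 ± 9.46), SRXN1 (146 ± 5.59), GCLM (99.5 ± 1.40), NFE2L2 (81.5 ± 2.57), KEAP1 (70.3 ± 2.14), GCLC (23.7 ± 0.696) and SLC7A11 (19.2 ± 0.975 FPKM; SD, n = 3 each), with no overlap between neighbours. In the libraries labelled control TXNRD1 was again highest (470 ± 9.51). NQO1 (267 ± 21.8) and HMOX1 (266 ± 16.9) overlapped, NFE2L2 came next (106 ± 8.53), SRXN1 (90.1 ± 3.52) and GCLM (87.3 ± 2.69) overlapped, KEAP1 followed (55.3 ± 2.79), and GCLC (22.0 ± 1.78) and SLC7A11 (19.4 ± 1.98 FPKM; SD, n = 3 each) overlapped. With the overexpression label NFE2L2 stood below SRXN1 and GCLM, and with the control label above both.

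**Figure D2:**
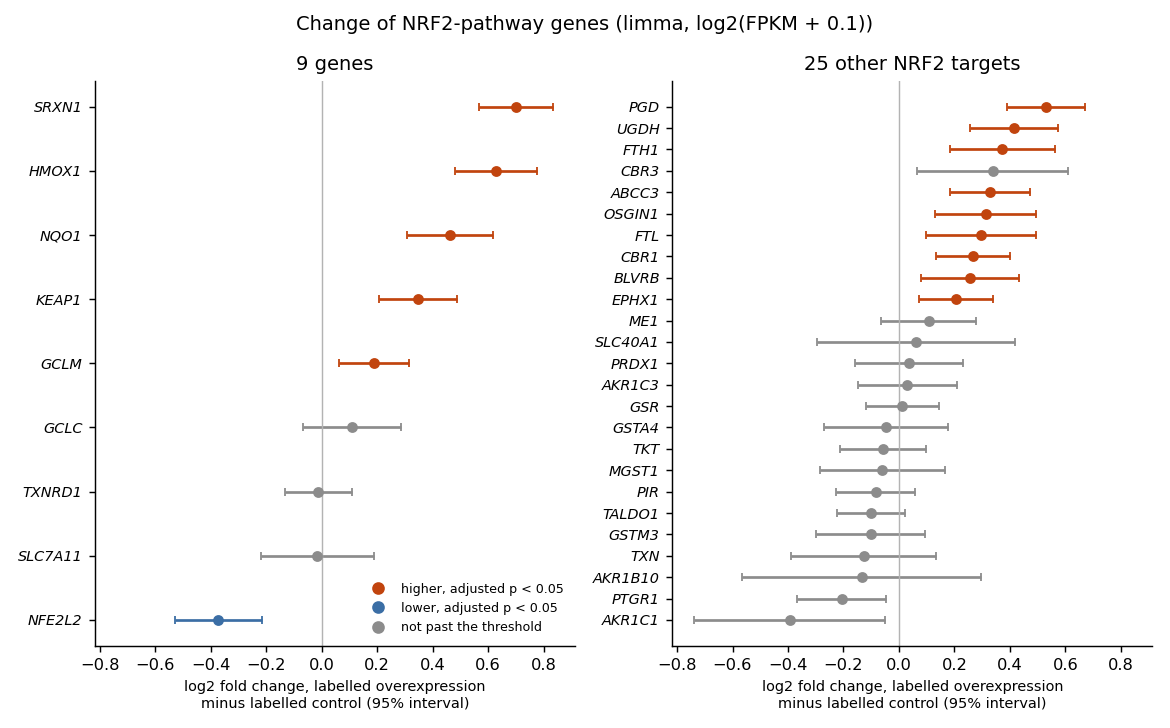
Log2 fold change (x axis, labelled overexpression minus labelled control) with its 95% limma interval for the 9 genes (left) and for 25 other NRF2 targets (right), sorted by size. Points in orange were higher and points in blue lower at an adjusted p under 0.05, and grey points did not pass. The 9 genes run from 0.70 for SRXN1 to -0.37 for NFE2L2, and PGD leads the other targets at 0.53.

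Whether HMOX1 moved with the other targets was asked of its ratio to each of them within the same library, over 6 pairs. In the values as deposited, SRXN1 was the target nearest to HMOX1. The log2 ratio of HMOX1 to SRXN1 was 1.47, 1.54 and 1.46 in the libraries labelled overexpression, against 1.55, 1.53 and 1.60 in those labelled control. The groups overlapped, and their means differed by -0.072 (exact permutation test, p = 0.2, adjusted p = 0.24). The difference turned to 0.17 after the neighbours' shift was subtracted. After a trend on GC content, length and expression was subtracted it was -0.092, and NQO1, at 0.030, was then the nearer target by this measure. In the values as deposited, SRXN1 ranked 9 of 12460 other tested genes by distance from HMOX1. This was the root mean square distance of centred log2 values over the 6 libraries (0.049).

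HMOX1 and NQO1 were not separated either. Their log2 ratio was 0.076, 0.25 and 0.16 in the libraries labelled overexpression, against -0.17, -0.065 and 0.23 in those labelled control. Control replicate 3, where HMOX1 was high and NQO1 low, lay among the libraries labelled overexpression (difference 0.17, exact permutation test, p = 0.3, adjusted p = 0.3). The difference was 0.082 without control replicate 1 and 0.28 without control replicate 3. It was 0.030 after the same trend was subtracted, and 0.32 after the neighbours' shift was.

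For the remaining 4 targets the ratio was higher in every library labelled overexpression than in any labelled control. The log2 ratio of HMOX1 to GCLM was 1.96, 2.11 and 2.06 in the libraries labelled overexpression, against 1.50, 1.57 and 1.75 in those labelled control, a difference of 0.44. Against GCLC the difference was 0.52, with ratios of 4.07 to 4.16 for the overexpression label and 3.41 to 3.81 for the control label. Against TXNRD1 it was 0.64, with ratios of -0.26 to -0.13 for the overexpression label and -0.89 to -0.68 for the control label. Against SLC7A11 it was also 0.64, with ratios of 4.37 to 4.52 for the overexpression label and 3.59 to 4.04 for the control label. Each of these 4 had p = 0.1 by the exact permutation test (n = 3 each), the smallest possible, and an adjusted p of 0.15 over the 6 pairs, so none passes a threshold of 0.05. HMOX1 itself was higher with no overlap, while GCLC, TXNRD1 and SLC7A11 did not pass. Their ratios therefore mostly carry the change of HMOX1. How many of all tested genes would be set apart from HMOX1 in this way was not counted.

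**Figure D3:**
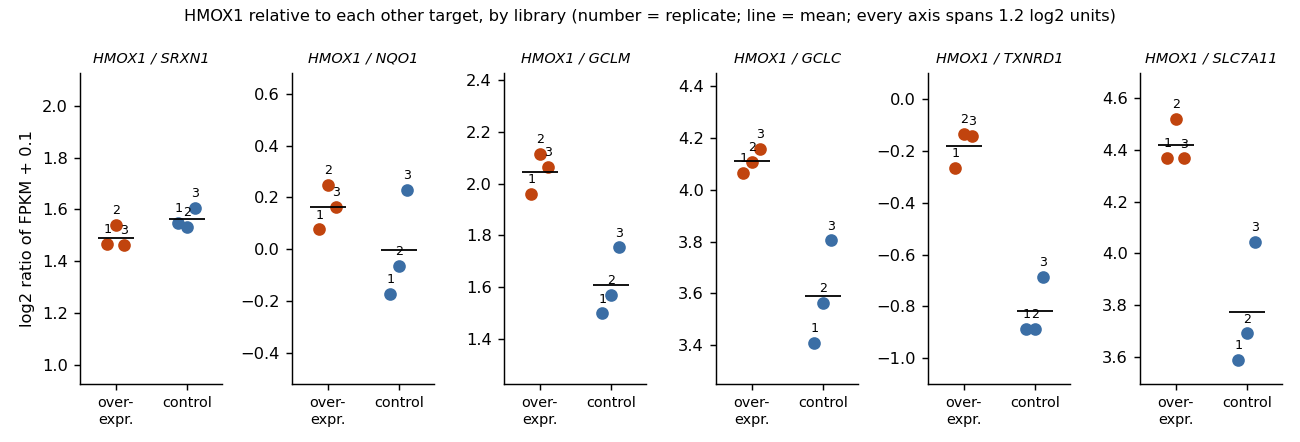
Log2 ratio of HMOX1 to each other target (y axis, FPKM + 0.1) in the 3 libraries labelled overexpression (left) and the 3 labelled control (right) of each panel, with replicate numbers and the mean as a line. The groups overlap for SRXN1 and NQO1 and are apart for GCLM, GCLC, TXNRD1 and SLC7A11, by 0.44 to 0.64 on the log2 scale.

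The targets also deviated differently within a group. Control replicate 3 was the highest of its group for HMOX1, SRXN1 and KEAP1 (0.10, 0.061 and 0.080 above the group mean on the log2 scale) and the lowest for NQO1, GCLM, GCLC, SLC7A11, TXNRD1 and NFE2L2 (-0.13, -0.043, -0.11, -0.17, -0.031 and -0.12). The first 3 genes have transcripts of 51.7% to 60.2% GC and the other 6 of 35.4% to 44.2% GC. Over all genes tested, the median deviation of control replicate 3 was 0.083 for transcripts of at least 50% GC and -0.072 for those below. Control replicate 1 was on the other side, at -0.061 and 0.061. With a trend on GC content, length and expression subtracted, control replicate 3 was at 0.063 for HMOX1, 0.037 for SRXN1 and -0.037 for KEAP1. It was then at -0.056 for NQO1, 0.058 for GCLM, -0.068 for GCLC, -0.074 for SLC7A11, 0.018 for TXNRD1 and -0.030 for NFE2L2. KEAP1, GCLM and TXNRD1 thus changed sides, and the others did not.

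The change between the groups ran with GC content as well, with a median log2 fold change of 0.090 over transcripts of at least 50% GC and -0.089 over those below. With a smooth trend on GC content, length and expression removed, HMOX1 stayed higher at 0.58 (limma adjusted p = 1.02e-04), SRXN1 at 0.67 (2.80e-05), NQO1 at 0.55 (5.11e-05), KEAP1 at 0.23 (0.00631) and GCLM at 0.31 (9.91e-04), and NFE2L2 stayed lower at -0.25 (0.0023). GCLM thus moved by more than 1.5 times. The corrected differences of HMOX1 from GCLM, GCLC, SLC7A11 and TXNRD1 were 0.27, 0.41, 0.49 and 0.53.

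**Figure D4:**
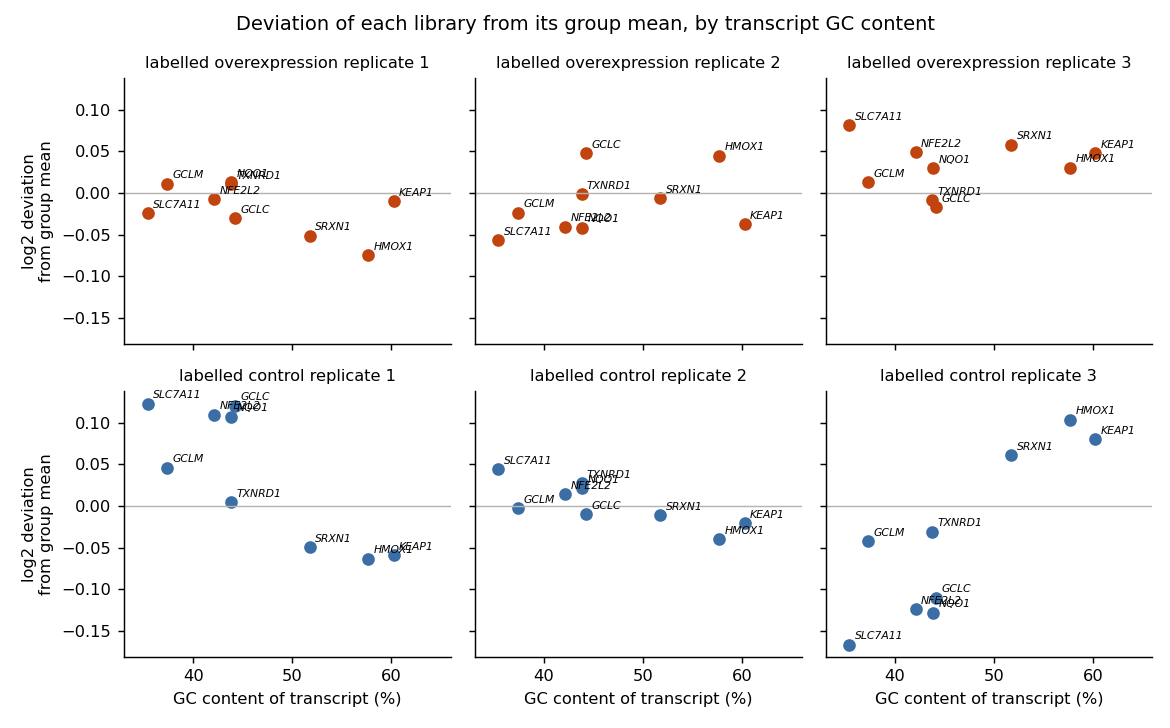
Log2 deviation of each library from its own group's mean (y axis) against the GC content of the canonical transcript in percent (x axis), for the 9 genes in each of the 6 libraries. In control replicate 3 the 3 genes above 50% GC lie above 0 and the other 6 below it, and in control replicate 1 the sides are exchanged.

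The antioxidant response element has the core TGACNNNGC. It was searched on both strands of RefSeq promoter windows (GRCh38.p14, 250 bases before to 50 after a start), which matched 7 of the 9 genes in 10 windows. HMOX1 and SLC7A11 had no entry. A match was found in 13.3% of all 35116 windows. There were 6 matches, in GCLM, in both TXNRD1 windows and in 1 of the 2 KEAP1 windows, and none of these letters in the windows of NFE2L2, NQO1, GCLC and SRXN1, as far as they reach. The related AP-1 site TGACTCA, which overlaps the core wherever GC follows it, was in 4.95% of all windows and in none of the 10. The matches are shown with 20 bases on each side because they fall in a gene that was higher (KEAP1), in the gene that just passed (GCLM) and in the flattest gene (TXNRD1). Each is on the strand of its gene, with the 9 bases of the match in capitals. Those starting with TGAC read on that strand, and those ending in GTCA on the other. Both KEAP1 matches lie before a start inside the gene's span, in the window 10502722 to 10503021. The window at the outer KEAP1 start, 10503307 to 10503606, had no match.
KEAP1, chr19:10502797-10502845, 54 bases before the start: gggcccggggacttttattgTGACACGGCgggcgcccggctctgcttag
KEAP1, chr19:10502774-10502822, 31 bases before the start: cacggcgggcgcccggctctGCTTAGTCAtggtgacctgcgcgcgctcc
GCLM, chr1:93909436-93909484, 34 bases before the start: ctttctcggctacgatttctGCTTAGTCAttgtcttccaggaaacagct
TXNRD1, chr12:104215660-104215708, 99 bases before the first start: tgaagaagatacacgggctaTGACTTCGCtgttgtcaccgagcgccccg
TXNRD1, chr12:104215751-104215799, 8 bases before the first start: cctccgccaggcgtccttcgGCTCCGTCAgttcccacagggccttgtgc
TXNRD1, chr12:104286910-104286958, 102 bases before the other start: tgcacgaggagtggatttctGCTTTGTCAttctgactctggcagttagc

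Among other genes of the pathway, some were higher and most did not pass. Of 32 further NRF2 targets in the list, 25 passed the filter, and 9 of those were higher and 0 lower by limma (10 and 2 at an unadjusted p under 0.05). These counts depend on which genes the list marks as targets. SQSTM1, which was higher, and ABCC4 and FECH, which were lower, were not marked and are not counted. Over all genes tested 11.3% were higher and 13.1% lower, and the counts by role that follow stand beside the same shares. The median log2 fold change of the 25 was 0.037. The 9 were ABCC3, BLVRB, CBR1, EPHX1, FTH1, FTL, OSGIN1, PGD and UGDH. The count was 6 without overexpression replicate 1, 7 without overexpression replicate 2, 3 without overexpression replicate 3, 6 without control replicate 1, 3 without control replicate 2 and 8 without control replicate 3. It was 6, with 1 lower, after the neighbours' shift was subtracted.

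Genes of heme and iron handling lie downstream of heme oxygenase or feed it. Of 11 heme and iron genes, 4 were higher and 1 lower. FTH1, the ferritin heavy chain that stores iron, had 18661.35, 17492.01 and 18877.85 FPKM in the libraries labelled overexpression, against 14296.36, 14279.24 and 13939.87 FPKM in those labelled control (log2 fold change 0.37, limma adjusted p = 0.0133). FTL, the ferritin light chain, was higher by 0.29 (0.038), and BLVRB, a biliverdin reductase, by 0.26 (0.0404). TFRC, the transferrin receptor for iron uptake, was the other higher gene, by 0.22 (0.0191). FECH, which inserts iron to complete heme, was 1.33-fold lower (log2 fold change -0.41, limma adjusted p = 0.00894).

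The calls of FTH1, FTL and FECH were less firm than that of HMOX1. Those of BLVRB and TFRC were not followed individually in the alternatives. With the shift of neighbours removed, FTH1 (limma adjusted p = 0.163), FTL (0.144) and FECH (0.231) no longer passed. Both ferritins also lost the call with no filter (0.142 for FTH1 and 0.21 for FTL). FTL lost it with quantile scaling as well (0.083 on the log2 scale, limma adjusted p = 0.384). That scaling sets values by rank, so it says little about genes as abundant as the ferritins. FTH1 no longer passed without overexpression replicate 3 (0.076), control replicate 1 (0.0672) or control replicate 2 (0.0694). FTL no longer passed without overexpression replicate 1 (0.0968), overexpression replicate 3 (0.138), control replicate 1 (0.145) or control replicate 2 (0.138). The ferritins have many processed copies in the genome, so their uniquely mapped reads are uncertain.

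NADPH supplies electrons to NQO1, TXNRD1 and glutathione reductase. PGD, a dehydrogenase of the pentose phosphate pathway, had 135.71, 129.85 and 122.83 FPKM in the libraries labelled overexpression, against 88.88, 93.6 and 86.43 FPKM in those labelled control. It was 1.44-fold higher with no overlap (log2 fold change 0.53, limma adjusted p = 8.34e-04). With the neighbours' shift subtracted it was 0.30 (0.017). Of 7 NADPH genes, PGD was the 1 that was higher, and 2 were lower. The lower ones were the mitochondrial enzymes IDH2 (log2 fold change -0.37, limma adjusted p = 0.00371) and MTHFD2 (-0.36, 0.00342).

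Detoxifying enzymes and exporters went both ways. Of 14 tested, 5 were higher and 1 lower. UGDH, which makes UDP-glucuronic acid, was 1.33-fold higher (log2 fold change 0.42, limma adjusted p = 0.00423), and the exporter ABCC3 was higher by 0.33 (0.00752), while the exporter ABCC4 was 1.32-fold lower (-0.40, 0.00896). With the shift of neighbours removed, ABCC3 (limma adjusted p = 0.123) and ABCC4 (0.0532) no longer passed.

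Of 15 tested glutathione genes, 1 was higher and 2 lower, where 11.3% and 13.1% of all genes were. GPX3, the secreted peroxidase, was 1.24-fold higher (log2 fold change 0.31, limma adjusted p = 0.00576). GPX1, an intracellular peroxidase, was 1.34-fold lower (-0.42, 0.00134), and at -0.22 (0.0279) with the neighbours' shift subtracted. GSTO1, a glutathione transferase, was 1.26-fold lower (-0.34, 0.028), a call that was lost without overexpression replicate 2 (limma adjusted p = 0.0731), control replicate 1 (0.0915) or control replicate 2 (0.103), and it was at -0.20 with the GC trend subtracted. Of 10 tested thioredoxin and peroxiredoxin genes, PRDX2, a cytosolic peroxiredoxin, was the only call (log2 fold change 0.37, limma adjusted p = 0.00722). The mitochondrial superoxide dismutase SOD2, better known as an NF-kB target, was 1.29-fold lower (-0.36, 0.00415).

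Among proteins that act on NRF2, SQSTM1 stood out. It encodes p62, which binds KEAP1 for autophagy and is itself known as an NRF2 target, but was listed under turnover and is not among the 25 targets above. FPKM values were 820.53, 868.78 and 841.97 in the libraries labelled overexpression, against 559.17, 560.9 and 638.31 in those labelled control. It was 1.44-fold higher (log2 fold change 0.53, limma adjusted p = 0.00134) and the only call among 9 genes of NRF2 turnover, where CUL3, the ligase scaffold, was at a log2 fold change of 0.032. Of 5 partners and competitors, the small MAF gene MAFG (0.31, limma adjusted p = 0.0462) and the NRF2 relative NFE2L1 (0.25, 0.0268) were higher, and BACH1, the repressor of HMOX1, was at -0.095 (0.548). The groups overlapped for MAFG. MAFG and NFE2L1 were lost with the shift of neighbours removed (limma adjusted p = 0.605 and 0.69). MAFG was also lost without any 1 of the 5 libraries other than control replicate 3 (0.0525 to 0.157), and so was NFE2L1 (0.0639 to 0.101).

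**Figure D5:**
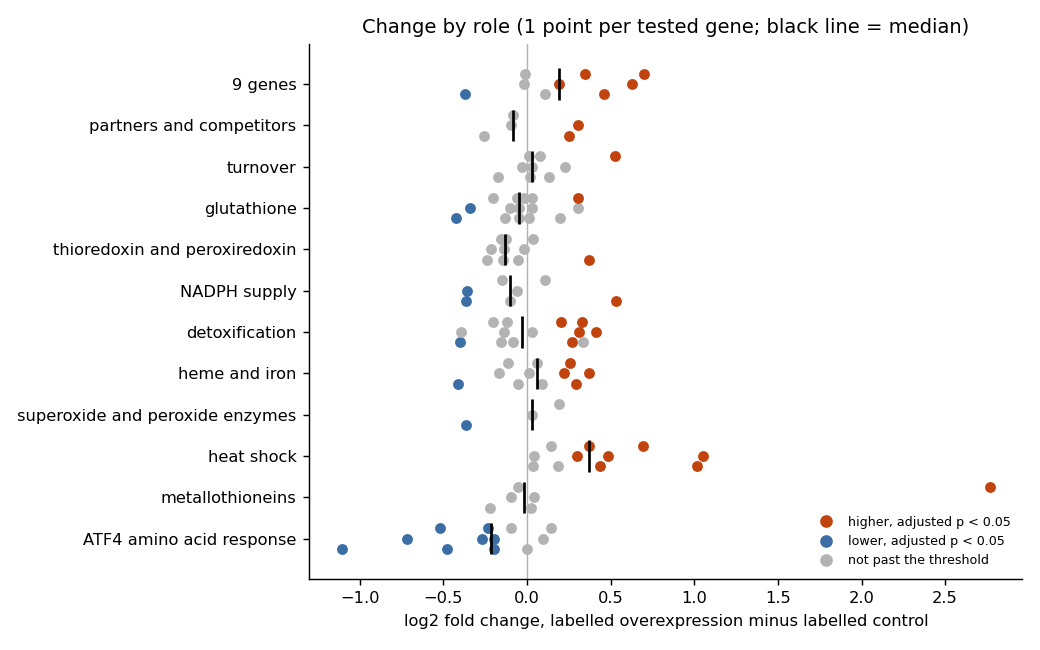
Log2 fold change (x axis, labelled overexpression minus labelled control) of every tested gene by role, 1 point per gene, with the median of each role as a black line. Points in orange were higher and points in blue lower at an adjusted p under 0.05. The pathway roles have medians between -0.13 and 0.061, heat shock genes one of 0.37 and ATF4 genes one of -0.22.

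The genes whose pattern over the 6 libraries was nearest to that of HMOX1 were CSF1, WDTC1, ANGPTL4, JMJD6 and RASSF2, with root mean square distances of 0.029 to 0.045 on the log2 scale. CSF1, a macrophage growth factor, had 180.09, 197.15 and 184.94 FPKM in the libraries labelled overexpression, against 112.67, 116.12 and 129.49 FPKM in those labelled control. As with HMOX1, its highest library labelled overexpression was replicate 2 and its highest labelled control was replicate 3. All tested transcripts of at least 50% GC had their highest median deviations in these libraries too (0.024 and 0.083). HMOX1 has 57.7% GC, and the 5 genes have 59.2%, 57.8%, 63.3%, 54.2% and 48.6% in the order named. The distances use values with no GC correction, and the part of GC content in these ranks was not tested. None of the 5 is in the NRF2 lists used here. By the same distance among 12460 genes, KEAP1 ranked 487, NQO1 576, GCLM 2280, GCLC 3800, TXNRD1 5407, SLC7A11 6370 and NFE2L2 11064.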

How the data were processed

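RNA sequencing libraries of HK-2 cells were prepared by the authors from poly(A)-selected RNA, aligned to GRCh38 with HISAT2 and reduced to uniquely mapped reads. The deposited values are FPKM, computed by the authors, with 1 column per library. HISAT2 and DESeq2 stand in the submitters' processing notes with no version. For annotation, counting tool and any effect of the study's batch correction on these values, details are not given in the sources used here. FPKM does not correct for GC content or library makeup.

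Counts were not used here, so the DESeq2 test of the study was replaced. Values were tested as log2(FPKM + 0.1) with limma 3.58.1 (eBayes with trend, R 4.3.3), two-sided, over the 12461 genes whose mean FPKM reached 1, with Benjamini-Hochberg adjustment over all of them and a threshold of 0.05. Log2 fold changes refer to log2(FPKM + 0.1), and low genes are understated on it. Ratios of gene pairs were compared by exact permutation. Positions came from RefSeq (20164 of 20442 symbols matched), GC content and overlaps from GENCODE. Named genes were the 9 members, HNRNPF, up to 3 called genes per role with the largest change, and the 5 nearest to HMOX1. BLVRB, TFRC, CUL3, BACH1, MT2A and the remaining other targets were named after their values were seen. The members and lists were chosen with earlier results of these data known, and 1 listed gene is not reported here. Whole fragments were sought in genes with 1 exon: at best, 41.2% to 46.4% of low values came within 0.15 of whole numbers, and 30% would by chance, so depth could not be recovered from the values. The read totals that the study tabulates were not used here, since the labels do not tie these libraries to a medium, and no counting interval is given. Figures were drawn with matplotlib 3.10.9. The alternatives tried are given in the closing section.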

Additional observations from a re-analysis of the deposited data

How the results depend on the processing

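HMOX1, SRXN1, NQO1, KEAP1, NFE2L2 and HNRNPF kept their direction and passed in all 18 alternatives. These were pseudocounts of 1 and 0.01, no filter or a filter at 5 FPKM, scaling by TPM, quantiles or median of ratios, limma with robust estimation or with no trend, the replicate block, each library left out, subtraction of the neighbours' median shift (10 Mb windows), and subtraction of a trend on GC content, length and expression, which was chosen after seeing the data. HMOX1 ranged from 0.58 to 0.69. GCLM (0.19) no longer passed with limma without trend (log2 fold change 0.19, adjusted p = 0.0753) or with the replicate block (0.19, adjusted p = 0.0692). The block also ended the calls of FTH1 (adjusted p = 0.0534) and FTL (0.104). Same-numbered libraries deviated with correlations of 0.091, -0.086 and 0.0057, which does not pair the libraries by number. The number of genes called was 3039, 3115 with the replicate block, 2169 with the shift of neighbours removed, 2417 with no filter and 1247 to 4254 on leaving out a library. GCLC newly passed with the shift of neighbours removed (0.22).

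Directions turned for values that passed in neither fit. TXNRD1 was 0.10 with quantile scaling, 0.024 with TPM, 0.067 with the shift of neighbours removed and 0.054 with the GC trend subtracted. SLC7A11 was 0.020 with TPM and 0.088 with that trend removed. The difference of HMOX1 from SRXN1 was 0.17 with the shift of neighbours removed. Leaving out a library gave -0.027 to 0.0018 for TXNRD1, -0.099 to 0.046 for SLC7A11, 0.17 to 0.21 for GCLM, and 3 to 8 higher and 0 to 2 lower among the other NRF2 targets. These were 6 higher and 1 lower with the shift of neighbours removed, and 12 higher and 1 lower with the GC trend subtracted. The cause was not tested. FTH1, the most abundant gene, is at a difference of 0 under quantile scaling by construction. Over the other 24 named genes, 392 values kept direction and call, 39 no longer passed and 0 turned. Depth was not recovered, so what it limits was not measured.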

Other observations

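Genes of neighbouring stress pathways did not share a direction. Of 11 heat shock genes, 7 passed as higher and 0 as lower with the overexpression label by limma (9 and 0 at an unadjusted p under 0.05), where 11.3% of all genes were higher and 13.1% lower, with a median log2 fold change of 0.37. The inducible chaperones HSPA1A and HSPA1B, a duplicated pair whose reads are hard to separate, were 2.02-fold and 2.07-fold higher, and the co-chaperone BAG3 1.61-fold. Of 12 genes of the ATF4 amino acid response, which also acts on SLC7A11, 0 were higher and 8 lower by limma (0 and 8 at an unadjusted p under 0.05), beside the same shares of 11.3% and 13.1%. CTH, which makes cysteine from cystathionine, had 55.84, 54.02 and 52.52 FPKM in the libraries labelled overexpression, against 89.73, 92.38 and 85.04 FPKM in those labelled control. NUPR1 (log2 fold change -1.11) and ASNS (-0.52) were lower as well.

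Of 6 metallothioneins, metal-binding proteins that also respond to oxidants, MT1G was the only call. It had 4.07, 1.55 and 5.52 FPKM in the libraries labelled overexpression, against 0.32, 0.61 and 0.31 FPKM in those labelled control. The log2 fold change was 2.77 (limma adjusted p = 0.00283), and a pseudocount of 1 gave 1.64. The control mean of 0.41 FPKM is under the filter of 1, so MT1G was tested only through the libraries labelled overexpression. With the filter at 5 FPKM it was not tested. MT2A, the most abundant at 9286 FPKM in the libraries labelled overexpression and 9103 FPKM in those labelled control, was at a log2 fold change of 0.021.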
